A study of Homo sapiens with 8 samples.

Results

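Bidirectional protein-coding promoters were examined in the H3K27ac ChIP-seq peak lists of HCEC-1CT cells, a human colonic epithelial cell line immortalised with CDK4 and hTERT. The peaks of the 6 H3K27ac libraries were merged where they touched, and 35542 of the 143733 merged intervals had a MACS2 fold enrichment of at least 5 in all 3 libraries of a genotype. An interval was counted as a bidirectional promoter when it held a divergent pair of GENCODE canonical coding starts, the minus-strand start lying upstream of the plus-strand start by at most 1000 bp. There were 838 such intervals, or 2.36% of the 35542, and they are called members below. They were compared with 8610 intervals that held 1 coding start, called single-start intervals.

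The groups were WT HCEC-1CT cells (3 libraries) and HCEC-1CT cells in which CREBBP had been knocked out by genome editing (CREBBP-KO, CBP KO in the labels and CBP_KO in the plots, 3 libraries). The series describes 3 independent populations of each cell type. The study's methods call the CREBBP-KO cells monoclonal and also describe pools of clones set beside a matched pool of parental subclones, so whether a library stands for 1 clone or for a pool of several was not settled here. The knockout cannot be checked in these lists, which hold peaks and no coding sequence.

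In a bidirectional promoter a pair of genes on opposite strands is transcribed outward from 1 shared nucleosome-depleted region. Such promoters are typically rich in CpG and hold many housekeeping genes. H3K27ac marks the nucleosomes beside active promoters and enhancers, and CREBBP, together with its paralogue EP300, is one of the acetyltransferases that place it.

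Of 949 divergent pairs among 19688 canonical coding starts, 878 (92.5%) lay whole in an interval that passed the filter. Another 6 lay in an interval that failed it, 21 had 1 start in an interval, 5 had the starts in different intervals and 39 had neither start in one. Among the members, 799 held 1 pair and 39 held more, and 818 (97.6%) passed the filter in both genotypes, against 92.5% of single-start intervals. The starts lay from 18 bp (CIR1-SCRN3) to 1000 bp (ATP6V1G2-NFKBIL1) apart, with a median of 234 bp, and 537 members (64.1%) had them at most 300 bp apart. Just outside the distance limit lay ABHD14B-ABHD14A at 1015 bp (1011 bp to the readthrough gene ABHD14A-ACY1) and USH1G-OTOP2 at 1018 bp. Just inside the fold limit, the lowest fold of the better genotype was 5.05 at CCR10-CNTNAP1 and 5.23 at PECR-TMEM169. Just outside it was 4.92 at LMNTD2-RASSF7 and 4.30 at FOXA1-TTC6.

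The lists held 86163 to 93567 peaks in WT and 99008 to 111697 in CREBBP-KO, and read counts were not used here, so the depth behind each peak is unknown. Of 7 epithelial marker genes, EPCAM, CDH1, KRT8, KRT19, VIL1 and CDX2 had no peak within 1000 bp of the canonical start in any library, and KRT18 had one in 5 libraries at percentiles from 32.9 to 57.7 of the library's list. VIM and COL1A1, used as fibroblast markers, had peaks in all 6, at percentiles from 96.2 to 99.9, and PTPRC and PECAM1 had none. Its part in the results below was not tested.

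The spans between the starts of 12 members are given next, because the results below turn on these pairs. They are read from hg38 on the plus strand, from the base after the minus-strand start to the base before the plus-strand start, and capitals mark matches, on either strand, to the letters of 10 promoter motifs described further on. CIR1-SCRN3 (chr2:174395713-174395729) was the shortest pair and PARP9-DTX3L (chr3:122564301-122564337) an interferon-inducible one. COL4A1-COL4A2 (chr13:110307158-110307283) encodes chains of type IV collagen. H2AC15-H2BC15 (chr6:27838376-27838568) and H2BC12-H2AC12 (chr6:27146856-27147105) are H2A-H2B pairs whose ranks moved in opposite directions. GPATCH2-SPATA17 (chr1:217631091-217631343), PLAGL2-POFUT1 (chr20:32207744-32207879) and PEX11A-WDR93 (chr15:89690755-89690810) were among the members with the largest upward shifts in rank. SREK1IP1-CWC27 (chr5:64768692-64768929), AIDA-BROX (chr1:222712492-222712563), PPP1R3D-FAM217B (chr20:59940306-59940388) and CDCA5-ZFPL1 (chr11:65084041-65084221) were among those that fell most. All lie outside both canonical transcripts. Per GENCODE, none holds coding sequence, exons of alternative transcripts of the same genes reach into 9 of them, with at most 29 bases annotated as untranslated region, and exons of alternative transcripts without a defined coding sequence cover all 72 bases of the AIDA-BROX span and 94 bases of the CDCA5-ZFPL1 span. The span of PPP1R3D-FAM217B is crossed by an intron of an alternative FAM217B transcript, and those of CIR1-SCRN3 and H2BC12-H2AC12 meet no transcript.
CIR1-SCRN3: aagggggaacttccgag
PARP9-DTX3L: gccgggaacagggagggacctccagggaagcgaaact
COL4A1-COL4A2: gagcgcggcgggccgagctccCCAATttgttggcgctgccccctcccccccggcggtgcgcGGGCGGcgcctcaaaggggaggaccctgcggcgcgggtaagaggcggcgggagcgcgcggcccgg
H2AC15-H2BC15: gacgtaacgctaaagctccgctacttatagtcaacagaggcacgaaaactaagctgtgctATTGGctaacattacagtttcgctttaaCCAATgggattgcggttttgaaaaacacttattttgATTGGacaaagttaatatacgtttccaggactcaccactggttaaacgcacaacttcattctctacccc
GPATCH2-SPATA17: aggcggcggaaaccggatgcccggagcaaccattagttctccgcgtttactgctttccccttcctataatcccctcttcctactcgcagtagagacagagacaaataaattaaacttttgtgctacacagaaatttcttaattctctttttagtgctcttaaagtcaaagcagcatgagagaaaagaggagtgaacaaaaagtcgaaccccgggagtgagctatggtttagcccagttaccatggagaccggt
PLAGL2-POFUT1: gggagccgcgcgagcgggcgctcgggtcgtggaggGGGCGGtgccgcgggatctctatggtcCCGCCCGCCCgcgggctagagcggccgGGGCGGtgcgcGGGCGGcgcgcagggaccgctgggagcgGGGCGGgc
PEX11A-WDR93: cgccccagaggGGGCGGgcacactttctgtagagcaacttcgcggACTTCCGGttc
SREK1IP1-CWC27: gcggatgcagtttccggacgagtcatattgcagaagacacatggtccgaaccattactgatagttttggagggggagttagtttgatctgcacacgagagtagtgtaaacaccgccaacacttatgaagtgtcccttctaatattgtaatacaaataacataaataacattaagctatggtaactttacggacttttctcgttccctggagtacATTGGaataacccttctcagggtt
AIDA-BROX: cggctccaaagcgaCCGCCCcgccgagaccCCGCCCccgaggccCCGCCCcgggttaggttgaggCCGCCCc
PPP1R3D-FAM217B: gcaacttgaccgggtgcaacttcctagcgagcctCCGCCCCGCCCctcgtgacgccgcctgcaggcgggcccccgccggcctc
CDCA5-ZFPL1: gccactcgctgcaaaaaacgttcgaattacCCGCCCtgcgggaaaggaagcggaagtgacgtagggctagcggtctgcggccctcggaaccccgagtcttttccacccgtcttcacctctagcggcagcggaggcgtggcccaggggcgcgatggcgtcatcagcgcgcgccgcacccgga
H2BC12-H2AC12: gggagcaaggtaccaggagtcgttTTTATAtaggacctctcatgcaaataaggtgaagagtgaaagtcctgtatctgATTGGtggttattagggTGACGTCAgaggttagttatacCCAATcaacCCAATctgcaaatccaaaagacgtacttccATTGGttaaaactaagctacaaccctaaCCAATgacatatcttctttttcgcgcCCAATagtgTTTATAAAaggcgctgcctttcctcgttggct

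The spans differed widely in base composition. Those of H2AC15-H2BC15, SREK1IP1-CWC27, H2BC12-H2AC12 and GPATCH2-SPATA17 had 40.9%, 41.6%, 42.4% and 45.5% GC, while those of PLAGL2-POFUT1, AIDA-BROX and COL4A1-COL4A2 had 83.8%, 80.6% and 80.2%. PLAGL2-POFUT1 held 6 matches to the GC box and AIDA-BROX 4, whereas the span of H2BC12-H2AC12 held 10 matches, 6 of them to the CCAAT box. Both histone spans held CCAAT boxes on both strands. The spans of GPATCH2-SPATA17, PARP9-DTX3L and CIR1-SCRN3 held none of the searched letters.

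In windows of 300 bp centred on the middle of the pair, the median GC content of the 838 members was 64% and the ratio of observed to expected CpG 0.892. The windows from 250 bp before to 50 bp after a start had 64.7% GC and 0.897 for the 1676 starts of the members, 67.0% and 0.866 for the 8610 single starts, and 63.7% and 0.777 for all coding starts. Members thus had more CpG for their base content than single starts, at a slightly lower GC content. The bases between the starts were richest in GC at the closest pairs, with a median of 70.3% in the 272 pairs at most 150 bp apart and 61.2% in the 91 pairs more than 600 bp apart.

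Motif letters were searched on both strands, and shares are given for the window centred on the pair and then for single starts and all coding starts. The ETS site CCGGAAGT was in 16.6% of the member windows against 8.91% of single starts and 6.11% of all starts. The letters ACTACAA were in 6.92% against 3.46% and 2.96%. The NRF1 site GCGCATGCG was in 5.73% against 4.10% and 2.70%. The CCAAT box CCAAT was in 43.0% against 35.5% and 36.1%. The YY1 site AANATGGC was in 13.0% against 11.2% and 8.11%, the GC box GGGCGG in 73.2% against 76.3% and 61.6%, and the letters CTCGCGAGA in 2.03% against 1.63% and 1.01%. Less frequent in members were the AP-1 site TGANTCA, with 2.15% against 3.95% and 5.45%, and the TATA box TATAAA, with 4.06% against 4.97% and 9.65%. The cyclic AMP response element TGACGTCA, the letters bound by CREB, the factor after which CREBBP is named, was in 4.42% of the member windows against 3.55% and 2.72%. The CRE palindrome reads the same on both strands, and some letters overlap others, as where adjoining GC boxes share bases. These shares describe letters in a window, not bound sites.

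Members carried taller and wider acetylation than single-start intervals in every library. The height of an interval was taken as the percentile of its highest fold within the library's own list. That fold could lie anywhere in the interval, and members were wider partly by rule, as given below. The part of width in the height gap was not tested. The median over members was 88.9, 89.4 and 90.7 in WT and 92.9, 92.5 and 92.6 in CREBBP-KO, and over single-start intervals 87.0, 87.1 and 88.0 in WT and 91.7, 91.2 and 91.0 in CREBBP-KO. The members were higher by 1.83 ± 0.59 percentile points (SD, n = 6 libraries; exact two-sided sign-flip permutation p = 0.0312, the smallest that 6 libraries allow). Among intervals with a fold of at least 10 the gap was 0.30 points (exact sign-flip permutation p = 0.125), which misses the threshold. With starts at most 300 bp apart it was 1.24 points (exact sign-flip permutation p = 0.0312). On the fold scale their medians ran from 11.97 to 15.6, those of single-start intervals from 10.99 to 14.4, and those of intervals with no coding start from 7.69 to 8.13.

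**Figure D1:**
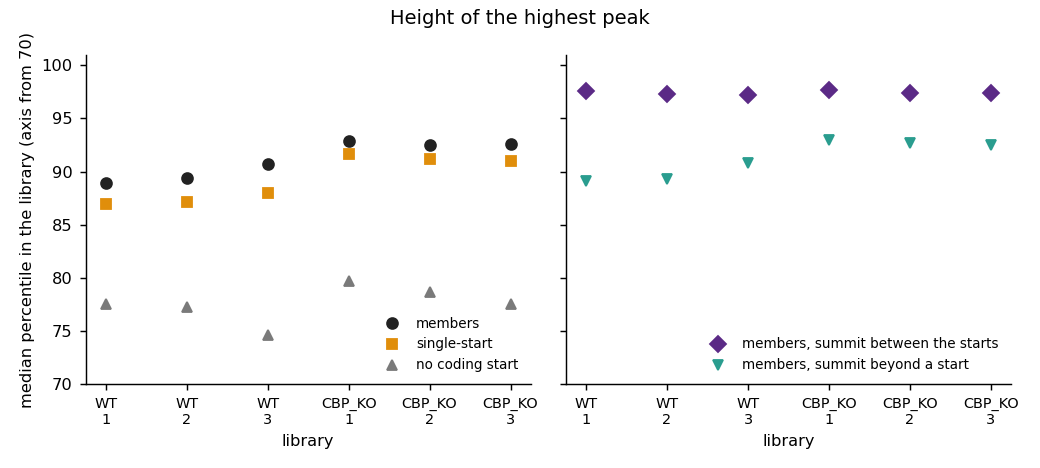
Median percentile of the highest fold in each of the 6 libraries (CBP_KO is CREBBP-KO), on an axis that starts at 70. Left, members (circles, 88.9 to 92.9) lay above single-start intervals (squares, 87.0 to 91.7) and intervals with no coding start (triangles) in each library. Right, the 98 members whose highest summit lay between the starts in all 6 libraries (diamonds, 97.2 to 97.6) lay above the 484 whose summit lay beyond the same start in all 6 (down triangles, 89.1 to 93.0).

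The gap in height over single-start intervals was 1.94, 2.26 and 2.73 points in WT and 1.18, 1.34 and 1.56 in CREBBP-KO. These ranges did not overlap, and the gap was smaller by 0.95 points in CREBBP-KO (exact two-sided permutation p = 0.1, the smallest that 3 against 3 allows, so this comparison cannot pass 0.05). When ranks were taken among the filtered intervals as normal scores, the gap was 0.14, 0.16 and 0.20 in WT and 0.11, 0.12 and 0.14 in CREBBP-KO, with overlap between genotypes (exact permutation p = 0.2). The gap over intervals with no coding start went the other way on the same scale, from 0.73, 0.79 and 1.00 in WT to 1.04, 1.04 and 1.10 in CREBBP-KO, with no overlap (exact permutation p = 0.1).

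The peaks of a library covered a median of 3176 to 3418 bp of a member. This exceeded the single-start median by 594 ± 24 bp (SD, n = 6 libraries; exact two-sided sign-flip permutation p = 0.0312), and the excess did not differ detectably between genotypes, with a difference of 10.7 bp (exact permutation p = 0.6). A member had to hold both starts of a pair, so the rule itself favours longer intervals and the excess is partly built in. With starts at most 300 bp apart the excess was 373 bp (exact sign-flip permutation p = 0.0312). A single peak spanned both starts in 92.8% to 98.7% of members. The rule favours this, since both starts had to lie in 1 merged interval. Across members, the distance between the starts had little relation to height, with Spearman rho from 0.11 to 0.15 in the 6 libraries (838 members, which share each library), and covered length was related to height with rho from 0.42 to 0.45.

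The point of highest acetylation avoided the starts themselves. Within 50 bp of a start lay the highest summit of 0.60% to 1.31% of members, and likewise of 0.69% to 1.08% of single-start intervals. Where the summit lay beyond a start, toward the body of a gene, its median distance from that start was 227.5 ± 2.5 bp in WT and 245.7 ± 5.5 bp in CREBBP-KO (SD, n = 3 each), with no overlap between genotypes (exact permutation p = 0.1). Single-start intervals with a downstream summit had it farther out, at a median of 260.7 bp in WT and 276.0 bp in CREBBP-KO. The members' median minus that of single-start intervals was -31.75 ± 4.96 bp (SD, n = 6; exact sign-flip permutation p = 0.0312), and both kinds of promoter had the larger distance in CREBBP-KO. Most summits were near the pair: 92.7% to 95.1% lay at most 500 bp beyond the nearer start or between the starts, and 14 to 22 members in a library had it more than 1000 bp away.

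**Figure D2:**
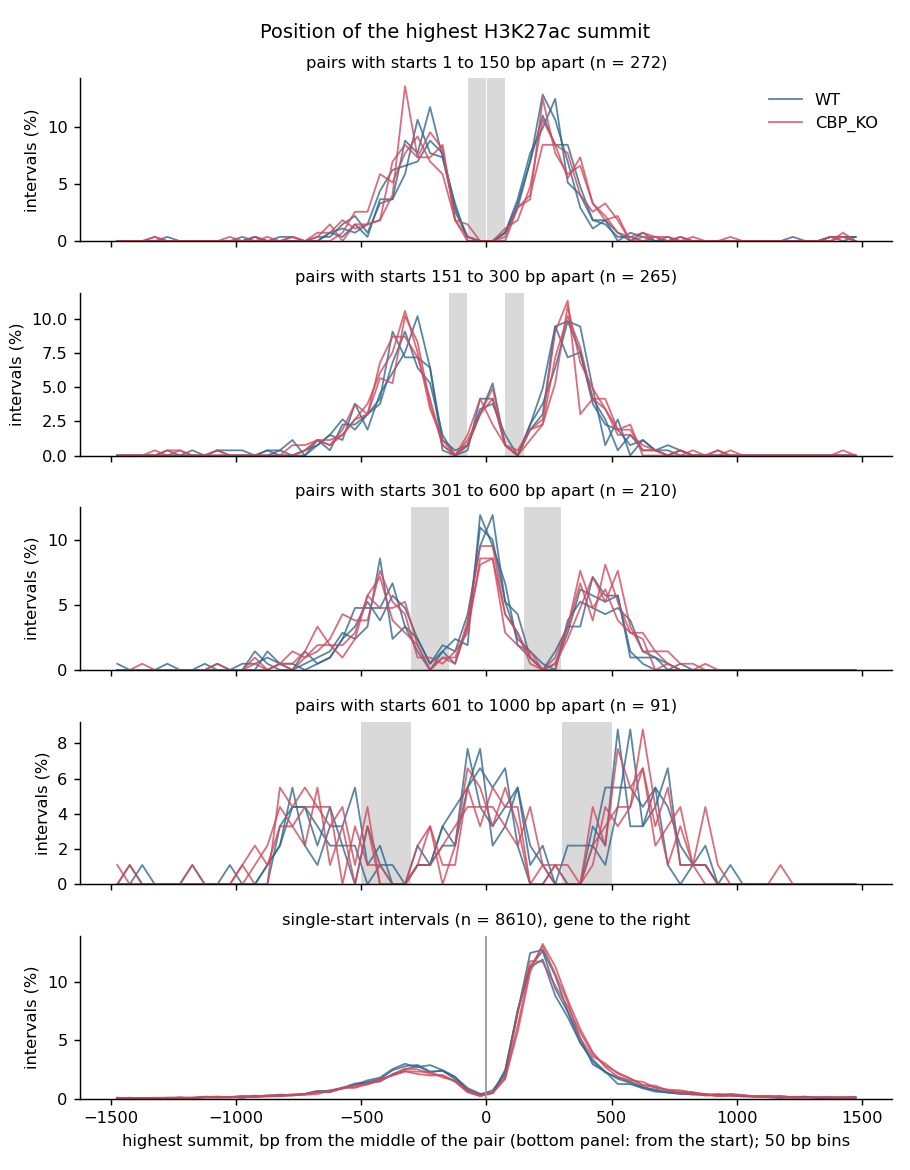
Share of intervals with the highest H3K27ac summit in each 50 bp bin, against bp from the middle of the pair, for 4 classes of distance between the starts and, at the bottom, against bp from the start for single-start intervals. Lines are libraries (WT blue, CREBBP-KO red) and grey bands show where the starts lie. Close pairs had 2 humps beyond the starts, a hump between the starts appeared in pairs 151 to 300 bp apart and was tallest in those 301 to 600 bp apart, and single starts had a large downstream and a small upstream hump.

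Whether the summit could lie between the starts depended on the distance between them. None of the 356 members with starts at most 200 bp apart had it there in any library. It lay between the starts in 4.21% of members 201 to 250 bp apart in each genotype, in 24.8% ± 0.67 (WT) and 23.6% ± 1.34 (CREBBP-KO) of those 251 to 300 bp apart, and in 40.8% ± 2.04 and 36.7% ± 2.04 of those 301 to 350 bp apart (SD, n = 3 each). Beyond 300 bp there was no further steady rise: the share was 37.4% in WT for the 210 pairs 301 to 600 bp apart and also 37.4% for the 91 pairs 601 to 1000 bp apart.

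**Figure D3:**
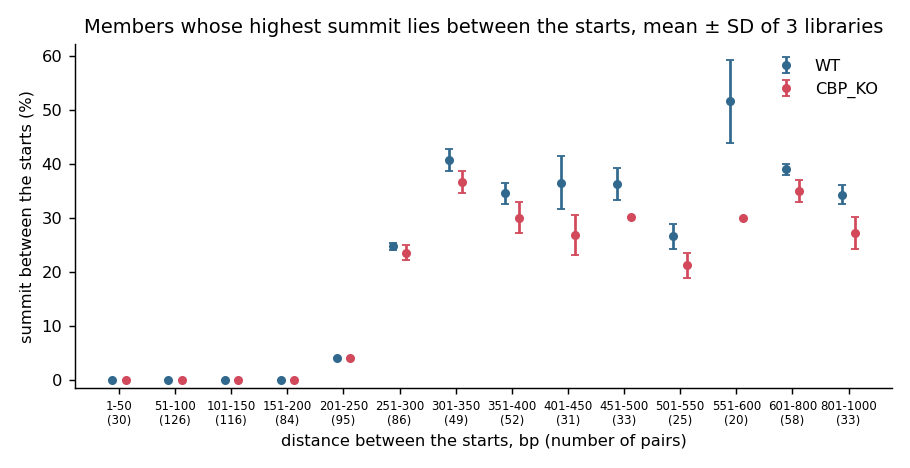
Share of members whose highest summit lay between the starts, against the distance between the starts, with the number of pairs in brackets; the last 2 steps are wider. Points are means of 3 libraries and bars are SD (WT blue, CREBBP-KO red). The share was 0 up to 200 bp in both genotypes, rose between 201 and 350 bp, and from 251 bp on every CREBBP-KO mean lay below its WT mean.

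Over all members the summit lay between the starts in 138, 140 and 135 members in the WT libraries and in 122, 117 and 112 in the CREBBP-KO libraries. The shares were 16.4% ± 0.29 and 14.0% ± 0.60 (SD, n = 3 each), a difference of -2.47 percentage points with no overlap (exact two-sided permutation p = 0.1, the smallest possible). With the outermost coding start of each gene in place of the canonical one it was -0.76 points (exact permutation p = 0.2), and with starts at most 500 bp and at most 300 bp apart it was -1.48 points (exact permutation p = 0.1) and -0.19 points (exact permutation p = 0.6). By distance class the difference was -7.20 points for pairs 301 to 600 bp apart and -5.13 points for pairs 601 to 1000 bp apart (exact permutation p = 0.1 for each), and -0.38 points for pairs 151 to 300 bp apart (exact permutation p = 0.6). The summit of 8 members lay between the starts in each WT library but never in CREBBP-KO, and that of 0 members did the reverse. Single-start intervals moved in the same sense: their summit lay upstream of the start in 26.3% ± 1.11 in WT and 23.04% ± 0.20 in CREBBP-KO (exact permutation p = 0.1).

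The side of the pair that carried the summit was mostly the same from library to library. Of the 837 members with a peak in all 6 libraries, 581 (69.4%) had the summit on the same side of the middle in all 6, and 10 had it on one side in all WT and on the other in all CREBBP-KO libraries. For pairs of libraries, the share of members with the same side was 85.2% to 87.9% within WT, 87.1% to 88.4% within CREBBP-KO and 84.2% to 86.4% between genotypes. By class, 251 members had the summit beyond the minus-strand start in all 6 libraries, 233 beyond the plus-strand start and 98 between the starts. The plus-strand side carried 49.9% ± 0.80 of summits in WT and 49.4% ± 1.09 in CREBBP-KO (exact permutation p = 0.5). Of the 484 members with the summit beyond the same start in all 6 libraries, 305 had more GC in the 500 bp beyond that start than in the 500 bp beyond the other, and 171 had less, with a median difference of 2.80 percentage points.

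Members with a central summit were taller than those with a summit beyond a start. The 98 members with the summit between the starts in all 6 libraries had median percentiles of 97.6, 97.3 and 97.2 in WT and 97.6, 97.4 and 97.4 in CREBBP-KO. The 484 with the summit beyond the same start had 89.1, 89.3 and 90.8 in WT and 93.0, 92.7 and 92.5 in CREBBP-KO. The difference was 6.18 points on average (exact sign-flip permutation p = 0.0312, in a comparison chosen after the values were seen) and 6.16 points when only pairs with starts at least 200 bp apart were compared. It was 7.63 ± 1.12 points in WT and 4.74 ± 0.11 in CREBBP-KO (SD, n = 3 each; exact permutation p = 0.1, no overlap). The percentiles of the central class overlapped between genotypes, and those of the other class did not. The central class lay near the top of the percentile scale, which left it little room to rise. This contrast was not repeated on normal scores. All 3 members with the highest mean percentile belonged to the central class. At RHBDD3-EWSR1, whose plus-strand gene encodes an RNA-binding protein, the folds were 33.2, 30.0 and 32.2 in WT and 43.5, 51.2 and 49.5 in CREBBP-KO (shift 0.70, limma adjusted p = 0.0232). At UFD1-CDC45, the second named for a subunit of the replicative helicase, they were 41.7, 32.7 and 35.6 against 36.3, 33.7 and 34.3, with overlapping folds and a shift of -0.61 (limma adjusted p = 0.0353). At PREPL-CAMKMT they were 39.0, 31.1 and 32.1 against 31.8, 37.1 and 39.3, with overlapping folds and a shift of -0.31 (limma adjusted p = 0.259).

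Between genotypes, whether more members rose or fell in rank in CREBBP-KO depended on how height was scored. The highest fold of each interval was ranked within its library, turned into a normal score and compared between genotypes by limma over all 34864 intervals with a peak in all 6 libraries. A shift is CREBBP-KO minus WT in units of that score, and a change common to a whole library cannot be seen on it. The median shift was 0.17 over the 837 members tested, 0.23 over single-start intervals, -0.09 over intervals with no coding start and 0.02 over all intervals. At a Benjamini-Hochberg adjusted p under 0.05, 196 members (23.4%) rose, against 18.6% of all intervals, and 70 members (8.36%) fell, against 18.7% of all intervals. The 196 include members that passed the filter through CREBBP-KO alone, whose direction the filter favours. Of the 818 that passed in both genotypes, 184 (22.5%) rose and 70 (8.56%) fell. Of single-start intervals 27.5% rose and 7.19% fell. The CREBBP-KO libraries all lay above the WT libraries at 258 members (30.8%, against 24.8% of all intervals) and all below at 103 (12.3%, against 23.3%).

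When folds were quantile normalised on the log2 scale, 195 members rose and 71 fell. No share over all intervals is given for that scoring, so no excess can be read from these counts. Without the limma trend the upward excess shrank: 150 members (17.9%) rose, against 16.9% of all intervals. In that fit 46 (5.50%) fell, against 16.7%. The upward excess was lost under 2 other scorings. With trends on GC content and interval length removed from each library's scores, 90 members (10.8%) rose, against 15.7% of all intervals, and 98 (11.7%) fell, against 16.1%, and the members' median shift was 0.03. With intervals ranked by -log10 p in place of the fold, 65 (7.77%) rose and 53 (6.33%) fell, against 12.4% and 12.9% of all intervals. Under both of these scorings the members were called less often than intervals in general in either direction. Members of the 4 distance classes were called alike in share, with 63 rising and 24 falling of the 272 closest pairs and 21 rising and 8 falling of the 91 widest.

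**Figure D4:**
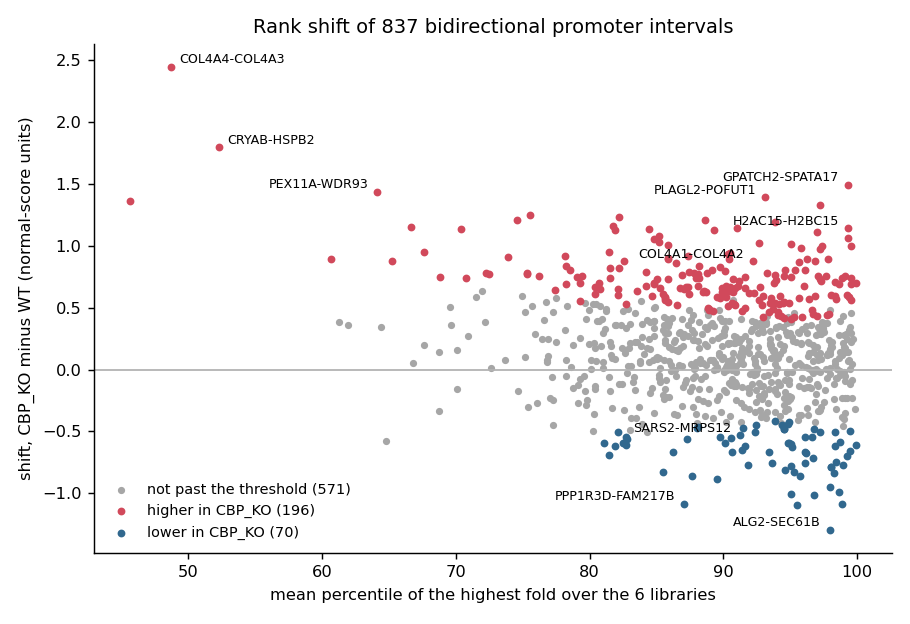
Shift in rank, CREBBP-KO minus WT, against the mean percentile of the highest fold over the 6 libraries, for the 837 members tested. Red points rose (196) and blue points fell (70) at an adjusted p under 0.05 by limma. The largest shifts were at low members that passed the fold filter through CREBBP-KO alone (COL4A4-COL4A3, CRYAB-HSPB2), and every member that fell had a mean percentile of at least 81.1.

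The largest shift was at COL4A4-COL4A3, whose genes encode chains of type IV collagen, the network collagen of basement membranes. Its folds were 2.49, 2.83 and 3.64 in WT and 8.46, 8.77 and 7.82 in CREBBP-KO, so all CREBBP-KO values lay above all WT values. The shift was 2.44 ± 0.32 (SE). Another head-to-head collagen pair, COL4A1-COL4A2, rose from 10.5, 12.6 and 11.3 to 17.6, 22.6 and 21.02, a shift of 0.87 ± 0.17 (limma adjusted p = 5.25e-04). Both pairs had the summit on the side of the minus-strand gene in all 6 libraries.

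CRYAB-HSPB2, a pair of small heat-shock protein genes with starts 964 bp apart, had folds of 3.21, 3.71 and 3.20 in WT and 8.03, 7.16 and 6.55 in CREBBP-KO (shift 1.79 ± 0.29). PEX11A-WDR93, of which PEX11A acts in peroxisome division, had 4.14, 4.47 and 4.32 against 7.99, 7.55 and 9.39 (shift 1.44 ± 0.27). The groups did not overlap at either pair. These 2 pairs and COL4A4-COL4A3 passed the fold filter through CREBBP-KO alone, so they had to be higher there, and no test of their shift is given.

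GPATCH2-SPATA17, at a mean percentile of 99.3, rose from 21.7, 24.6 and 20.7 to 41.05, 49.1 and 50.15 (shift 1.49 ± 0.21, limma adjusted p = 3.11e-05). Its summit lay between the starts, within 40 bp of the middle, in all 6 libraries. PLAGL2-POFUT1, a zinc-finger factor gene beside the gene for a fucosyltransferase of Notch receptors, rose from 10.8, 12.3 and 11.04 to 23.8, 26.9 and 27.4 (shift 1.39 ± 0.16, adjusted p = 3.78e-06). Ranked by -log10 p, the shifts of these pairs were 0.53 and 0.73, still past the threshold. Both passed the filter in both genotypes. Their folds did not overlap between genotypes, and a lack of overlap was a condition for picking the largest shifts. Their spans printed above differ in composition, the first with 45.5% GC and no searched letters, the second with 83.8% and 6 GC boxes.

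**Figure D5:**
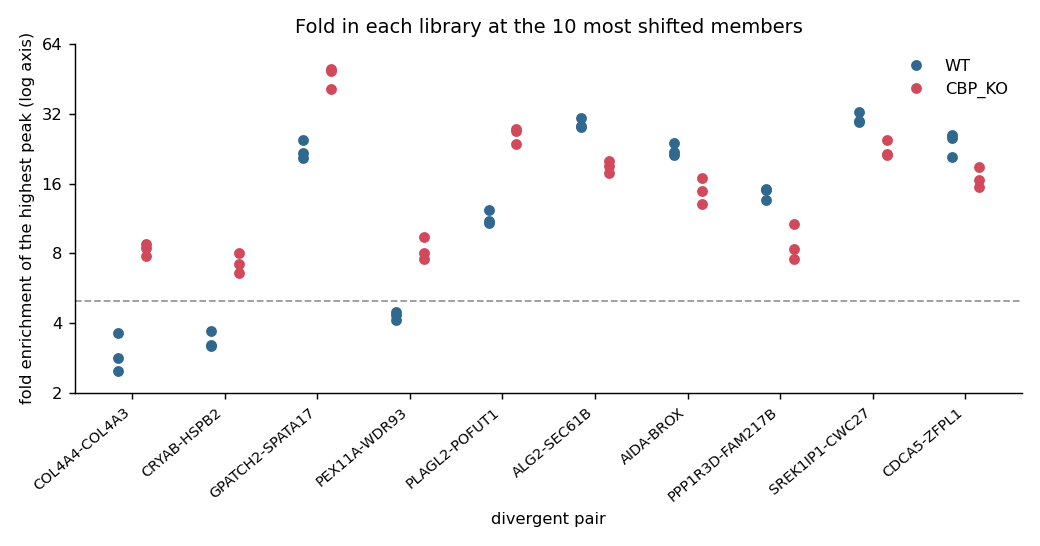
Fold enrichment of the highest peak in each library at the 5 members with the largest rise and the 5 with the largest fall, on a log axis; each point is a library (WT blue, CREBBP-KO red) and the dashed line is the fold limit of 5. The 10 pairs were picked among members whose libraries did not overlap between genotypes, so the gap between WT and CREBBP-KO points is set by that choice. In 3 pairs, which passed the filter through CREBBP-KO alone, all WT points are under the limit.

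The largest fall was at ALG2-SEC61B, a mannosyltransferase of N-glycan assembly beside a subunit of the translocon of the endoplasmic reticulum. Its folds were 30.8, 28.1 and 28.2 in WT and 19.0, 17.8 and 19.9 in CREBBP-KO, with a shift of -1.29 ± 0.16 (limma adjusted p = 9.08e-06). AIDA-BROX fell from 24.0, 21.2 and 21.9 to 16.9, 13.0 and 14.8 (shift -1.10 ± 0.17, adjusted p = 5.60e-05). PPP1R3D-FAM217B, of which PPP1R3D targets protein phosphatase 1 to glycogen, fell from 14.96, 15.2 and 13.6 to 7.59, 8.38 and 10.7 (shift -1.09 ± 0.19, adjusted p = 1.88e-04). None of the CREBBP-KO values reached the WT range in these pairs, which were picked among members without overlap.

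SREK1IP1-CWC27, both tied to splicing, fell from 32.4, 29.5 and 29.8 to 21.5, 24.7 and 21.2 (shift -1.08 ± 0.17, limma adjusted p = 9.26e-05). Ranked by -log10 p it had a shift of -0.38 and an adjusted p of 0.0544, which misses the threshold. CDCA5-ZFPL1, of which CDCA5 (sororin) holds sister chromatids together, fell from 25.9, 20.9 and 25.2 to 16.5, 18.8 and 15.4 (shift -1.01 ± 0.17, adjusted p = 1.33e-04). By the same ranking the shifts of ALG2-SEC61B, AIDA-BROX, PPP1R3D-FAM217B and CDCA5-ZFPL1 were -0.74, -0.57, -0.62 and -0.63, smaller but past the threshold. ALG2-SEC61B and SREK1IP1-CWC27 had the summit between the starts in all 6 libraries, and AIDA-BROX, PPP1R3D-FAM217B and CDCA5-ZFPL1 beyond the plus-strand start in all 6.

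Of 15 members that are well-known head-to-head pairs, 3 rose, 1 fell and 11 did not pass the test. Of all intervals 18.6% rose and 18.7% fell, and 15 pairs are too few to read a difference from. Besides COL4A1-COL4A2, PARP9-DTX3L, an ADP-ribosyltransferase and its partner ubiquitin ligase, rose from 12.04, 11.6 and 13.9 to 20.4, 19.5 and 17.6 (shift 0.59 ± 0.17, limma adjusted p = 0.00875). SIRT3-PSMD13, a mitochondrial deacetylase and a proteasome lid subunit, rose from 8.79, 9.37 and 10.7 to 14.0, 14.4 and 15.9 (shift 0.61 ± 0.18, adjusted p = 0.0108). SARS2-MRPS12, the mitochondrial seryl-tRNA synthetase beside a protein of the mitochondrial ribosome, fell from 14.8, 16.2 and 13.55 to 11.35, 13.2 and 12.7 (shift -0.53 ± 0.17, adjusted p = 0.0174). With trends on GC and length removed, PARP9-DTX3L (shift 0.38, adjusted p = 0.0795) and SIRT3-PSMD13 (shift 0.39, adjusted p = 0.111) missed the threshold and CTDNEP1-ELP5, which encodes a nuclear envelope phosphatase subunit and an Elongator subunit, passed it (shift -0.63, adjusted p = 0.0107, against -0.37 and 0.0679 otherwise).

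The pairs that did not pass included those of DNA repair and purine synthesis. NPAT-ATM, a coactivator of histone genes beside the kinase of the DNA damage response, had folds of 9.65, 10.6 and 9.01 in WT and 10.1, 11.5 and 11.6 in CREBBP-KO (shift 0.08 ± 0.19, limma adjusted p = 0.768). ZAR1L-BRCA2 had 19.1, 18.6 and 15.9 against 23.5, 26.5 and 23.6 (shift 0.37 ± 0.17, adjusted p = 0.0826): its folds did not overlap, and the median fold of members was also higher in the CREBBP-KO lists. PPAT-PAICS, HSPD1-HSPE1, TAP1-PSMB9, SURF1-SURF2, PRKDC-MCM4, PMS2-AIMP2, CTDNEP1-ELP5 and TMEM258-FEN1 had shifts from -0.37 to 0.48. TBP-PSMB1 was not a member under the rule, since its canonical starts lie 1062 bp apart. RANBP1-TRMT2A was not one because its canonical starts are not divergent. The minus-strand start of TRMT2A lies 1122 bp to the right of the plus-strand start of RANBP1.

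All 11 H2A-H2B histone pairs that were members had starts 194 to 251 bp apart. Their mean percentiles ran from 76.0 to 99.3. H2AC15-H2BC15 had the shortest distance and rose from 24.0, 19.0 and 25.3 to 39.8, 47.6 and 39.5 (shift 1.14 ± 0.21, limma adjusted p = 2.83e-04). H2BC12-H2AC12 had the longest distance and moved from 17.1, 15.6 and 16.4 to 14.1, 13.6 and 16.75 (shift -0.42 ± 0.16, adjusted p = 0.0445); its folds overlapped, while its ranks within the libraries did not. The other 9 had shifts from -0.32 to 0.28 and did not pass. Of all intervals 18.6% rose and 18.7% fell, and 11 pairs are too few to set against those shares. Histone genes are near-identical copies, so reads downstream of these starts may be shared between copies and the values are uncertain to that extent.

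Other families were listed by symbol. Respiratory chain genes were at 32 members, of which 10 rose and 2 fell, and genes of DNA repair and replication at 33, of which 4 rose and 3 fell. Mitochondrial ribosome genes were at 25 members (5 rose, 2 fell), ZNF genes at 27 (9 rose, 3 fell), transcription machinery genes at 26 (7 rose, 2 fell) and chromatin regulators at 12 (2 rose, 1 fell). Proteasome genes were at 9 (1 rose, 1 fell) and aminoacyl-tRNA synthetase genes at 7 (2 rose, 3 fell). Of all members 23.4% rose and 8.36% fell, and of all intervals 18.6% and 18.7%. Against these shares the counts are small, and nothing is read from them about a single family.

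The 14 members with a cytosolic ribosomal protein gene were tall, with mean percentiles from 90.3 to 99.6 and a median of 97.4, where the medians of the other 9 families ran from 89.4 to 94.7. In 8 of them the summit lay beyond the start of the ribosomal protein gene in all 6 libraries, and in none did it lie beyond the partner's start in all 6. At RPL9-LIAS the summit lay from -254 to -401 bp from the middle (negative positions are on the side of the minus-strand gene), toward RPL9, and at MED22-RPL7A 204 to 326 bp toward RPL7A, whichever strand the ribosomal gene was on. Counted by side of the middle, 11 of 11 ribosomal pairs with a constant side had the summit on the ribosomal gene's side, against 15 of 22 for the respiratory chain, 8 of 12 for the mitochondrial ribosome, 3 of 6 for the proteasome and 5 of 18 for DNA repair and replication. Of all 14 ribosomal pairs 5 rose and 0 fell, against 23.4% and 8.36% of all members and 18.6% and 18.7% of all intervals, too few to read a difference from. Among those that rose was RPL9-LIAS, from 16.5, 15.8 and 19.6 to 26.0, 29.2 and 29.6 (shift 0.76 ± 0.17, limma adjusted p = 0.00161).

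Among the repair genes, the summit lay on the partner's side at some known pairs. At NPAT-ATM it lay from -414 to -746 bp from the middle, toward NPAT, and at ZAR1L-BRCA2 it lay on the ZAR1L side in all 6 libraries. PMS2-AIMP2 had it on the AIMP2 side and TMEM258-FEN1 between the starts in 5 of 6. The peak lists hold no transcript levels, so no relation to the output of either gene was tested.

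The counts of members with a given motif were small. Of the 37 members with the CRE letters in the centred window, 7 rose and 2 fell (18.9% and 5.41%), against 23.6% and 8.50% of the 800 without them, with median shifts of 0.09 and 0.17. Of the 139 with the ETS letters 37 rose and 11 fell (26.6% and 7.91%). Of the 18 with the AP-1 letters 1 rose and 4 fell, against 23.8% and 8.06% of members without them, and of the 34 with the TATA letters 4 rose and 6 fell, against 23.9% and 7.97%. Of single-start intervals with the AP-1 letters 25.7% rose and 10.9% fell, and with the TATA letters 24.6% and 14.6%. Over the 10 motifs the share of members that rose ran from 5.56% to 29.4% and the share that fell from 5.17% to 22.2%. The span of H2BC12-H2AC12 printed above holds a CRE and TATA boxes and was among the members that fell. No test was made on these lists.

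Where an interval was long, its highest summit could lie away from the pair. The 3 members whose highest summit moved farthest without overlap between genotypes were of this kind. In the interval of KIF18A-METTL15, which was 30785 bp long, the summit lay at -17610, -17670 and -20976 bp from the middle in WT and at 2303, 2173 and 2182 bp in CREBBP-KO, at folds of 21.2, 20.1 and 16.6 against 25.01, 23.4 and 21.9. At SLC25A11-RNF167 it lay at 306, 645 and 8048 bp in WT and 9157, 9259 and 8074 bp in CREBBP-KO. At ACAP3-PUSL1 it lay at -2844, -3262 and 588 bp in WT and 714, 688 and 672 bp in CREBBP-KO. None of the 3 passed the test of the shift (limma adjusted p = 0.637, 0.992 and 0.376). Ranking members only by peaks that reached within 500 bp of the span left the counts at 196 rising and 70 falling. Such a peak kept its full fold wherever its summit lay, and 1 peak spanned both starts in 92.8% to 98.7% of members. This setting could therefore change few values, and the part of far summits in the counts was not tested.

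The closest pairs differed in their shifts. CIR1-SCRN3, with starts 18 bp apart, had folds of 14.5, 11.4 and 12.7 in WT and 13.2, 11.8 and 14.0 in CREBBP-KO (shift -0.16 ± 0.18, limma adjusted p = 0.484). MRM2-NUDT1, with starts 21 bp apart, had 7.36, 7.77 and 9.17 against 15.3, 14.9 and 17.15 (shift 1.08 ± 0.19, adjusted p = 2.10e-04). HIGD2B-BBS4, with starts 25 bp apart, had 12.3, 12.6 and 14.2 against 13.8, 12.2 and 15.35 (shift -0.10 ± 0.17, adjusted p = 0.673). At the other end, ATP6V1G2-NFKBIL1 (1000 bp) had a shift of 0.32 ± 0.19 (adjusted p = 0.181), HNRNPA2B1-CBX3 (999 bp) 0.39 ± 0.17 (adjusted p = 0.0712) and SMIM7-TMEM38A (995 bp) -0.51 ± 0.20 (adjusted p = 0.0479). The last fell from 10.5, 10.6 and 9.82 to 8.04, 8.47 and 8.50.

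Only 20 of the 838 members passed the filter in a single genotype, 19 of them in CREBBP-KO alone and 1 (CALR3-C19orf44) in WT alone. Among the 19 were HDAC3-RELL2, which holds the gene of a class I histone deacetylase, with folds of 5.42, 4.68 and 5.50 in WT and 8.08, 9.64 and 9.12 in CREBBP-KO, and NTHL1-TSC2, which holds a base excision repair gene and a regulator of mTOR signalling, with 3.48, 5.19 and 4.73 against 6.67, 7.88 and 5.44. The groups did not overlap at either pair, a difference that the filter itself selects for. CALR3-C19orf44 had 5.55, 6.61 and 6.11 in WT and 5.11, 4.8 and 5.56 in CREBBP-KO, where the folds overlapped narrowly. The folds of members as a whole were higher in CREBBP-KO (median 12.4 ± 0.71 in WT and 14.99 ± 0.67 in CREBBP-KO, SD, n = 3 each), and the part of list length and background in that was not tested.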

How the data were processed

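H3K27ac was profiled by ChIP-seq on chromatin sheared by sonication. The authors aligned reads to hg38 (BWA, per the submitters' processing notes) in the nf-core ChIP-seq pipeline and called narrow peaks in each library with MACS2. They deposited, per peak, a fold enrichment ratio, a −log10 p, a −log10 q and a summit. The authors also ran the pipeline on reads downsampled to a common maximum. Which run gave these lists, and whether the 2 inputs were used, is not given in the sources used here, and read counts and inputs were not analysed here, so no counting interval is given.

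Members, families, motifs and lists were chosen with earlier results of these data known. Starts are those of GENCODE release 44. Highest folds per interval were ranked within each library, turned into normal scores and compared with limma 3.58.1 (trend, Benjamini-Hochberg over all intervals tested). In simulated data, of 200 intervals changed among 34864, 0, 176 and 195 were called at shifts of 1, 2 and 3, with 0, 4 and 6 others. Far fewer intervals were changed there than were called in these data. The simulation therefore does not check calls at shifts of 1 or less. Library values were compared by exact two-sided permutation tests, which cannot go below 0.1 for 3 against 3 or 0.0312 for 6 sign flips. Named pairs were known head-to-head and H2A-H2B pairs, the 5 largest shifts each way past an adjusted p of 0.05 without overlap of the libraries, the 3 highest and lowest members, those nearest the distance limits and the 3 largest summit moves. Family members, single-genotype pairs and the comparison of summit classes were added after values were seen. Of several pairs in an interval the closest one represents it, after pairs without a readthrough or unnamed gene. Sequence was read with pysam 0.24.0. Some named pairs are not reported here.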

Additional observations from a re-analysis of the deposited data

How the results depend on the processing

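Ranks hide any change common to a library, the lists differ in length, and the permutation tests cannot pass 0.05 between genotypes. With a fold limit of 10 the height gap over single-start intervals was 0.30 points (exact sign-flip permutation p = 0.125), and without any 1 library it was 1.68 to 2.06 points and the width excess 591.1 to 606.4 bp (p = 0.0625, the smallest that 5 libraries allow). The height difference between summit classes was likewise 5.72 to 6.49 points. The genotype difference in that width excess, near 0, turned to -17.3 bp with a fold limit of 10, -2.0 bp with starts at most 500 bp apart and -2.5 bp without CREBBP-KO replicate 2, and ran up to 25.2 bp without other libraries. The difference in the plus-side share was 0.0598 points without CREBBP-KO replicate 3 and down to -1.01 without others. With starts at most 300 bp apart there were 539 members (537 by the pair that represents each, since in 2 the closest pair involves a readthrough or unnamed gene), of which 127 rose and 46 fell. That fit was over the same intervals as before, of which 18.6% rose and 18.7% fell. Without the limma trend 150 rose and 46 fell, against 16.9% and 16.7% of all intervals. Members that rose numbered 90 with GC and length trends removed and 65 when ranked by −log10 p, against 15.7% and 12.4% of all intervals. Leaving out 1 library gave 134 to 224 rising and 45 to 63 falling, with the 45 without CREBBP-KO replicate 3. The cause was not tested. The replicate numbers did not pair the libraries (correlations of deviations 0.01, 0.01 and 0.03). With the replicate block 199 members (23.8%) rose and 70 (8.36%) fell, against 18.7% and 18.8% of all intervals. Among the largest shifts each way, the 3 pairs that passed the filter through CREBBP-KO alone are left out here. Of the others, SREK1IP1-CWC27 alone missed the threshold in 1 setting (−0.38, ranked by −log10 p). Its other values kept their direction and their side of the threshold. Not every pair had a value in every setting.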
